A study of Mus musculus with 12 samples.

Results

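TET2 sites were examined at 8 mouse genes that encode the RUNX transcription factors, their partner CBFB, the corepressor ETO and the TLE corepressors. The genes were Runx1, Runx2, Runx3, Cbfb, Runx1t1, Tle1, Tle3 and Tle4. A site belonged to a gene when its midpoint lay inside the gene, or lay within 100 kb of it with an end of that gene as the nearest end of any protein-coding RefSeq gene. This took in 31 of 6895 AML sites and 50 of 18822 myeloid sites, together 81 of 25717. The farthest sites counted outside a gene lay 90.8 kb from Runx3 (AML) and 93.8 kb from Tle3 (myeloid). Of sites outside genes whose nearest gene end was a member's, the closest beyond the limit lay 120.5 kb (AML) and 114.6 kb (myeloid) from Tle3. Sites closer to a member were also left out where they lay inside another gene or nearer to another gene's end.

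The study mapped TET2, an enzyme that oxidizes methylated cytosine in DNA, by chromatin immunoprecipitation and sequencing in cultured mouse blood cells of 2 kinds. Myeloid cells had been immortalized with the retroviral vector MigR1-AML1-ETO and were Tet2fl/fl; AML1-ETO or, as knockouts, Tet2-/-; AML1-ETO. AML cells, an acute myeloid leukemia culture without a transgene, were Npm1+/cA; Fl3+/ITD (written so in the labels) or Npm1+/cA; Fl3+/ITD; Tet2-/-. Per cell kind there were 2 libraries from wild-type and 2 from knockout cells with the TET2 antibody, besides 1 of input and 1 with IgG, and all cells grew with 50 ng/ml SCF, 10 ng/ml IL-3 and 10 ng/ml IL-6. All myeloid libraries, controls included, therefore came from cells with the AML1-ETO fusion. For every library the cells were fixed with 2 mM DSG and 1% formaldehyde. The labels do not say whether a culture was a clone or came from several animals. The deposited data are 1 list of site positions per cell kind, with no value per library or per site. The depth behind a site is thus unknown, a site has no replicate error, and wild-type and knockout signal cannot be compared. After overlapping sites within a list were merged, there were 2.73 myeloid sites for each AML site.

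RUNX proteins bind DNA through their Runt domain, and CBFB joins them without touching DNA itself and strengthens that binding. RUNX proteins can activate or repress genes, and TLE proteins, which have no DNA-binding domain, are among the corepressors they recruit through their C-terminal end. In the leukemia fusion AML1-ETO, the Runt domain of RUNX1 is joined to nearly all of ETO (RUNX1T1), a corepressor that brings in histone deacetylases, and the C-terminal end of RUNX1 is lost. Runx1 and Runx3 are each transcribed from a distal and a proximal promoter. For Runx2 the RefSeq promoters used held 1 start, and any other start of that gene was not examined.

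A stretch of 18 bases with a pair of RUNX core motifs stood at the distal starts of Runx1 and Runx3 and at the Runx2 start. TET2 sites covered it at Runx1 and Runx3. The sequences below are RefSeq promoter sequences of the GRCm38.p6 assembly, whose chromosome coordinates are those of mm10. They are shown because they hold the longest run of letters that the promoter windows of the 3 genes have in common. Capitals mark ACCACA, the RUNX core TGTGGT read on the other strand.
Runx1 distal, chr16:92826025-92826054, minus strand: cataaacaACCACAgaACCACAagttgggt
Runx2, chr17:44814583-44814612, minus strand: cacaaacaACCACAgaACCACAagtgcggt
Runx3 distal, chr4:135120503-135120532, plus strand: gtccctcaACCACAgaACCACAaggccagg
The common run is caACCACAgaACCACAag, with 8 bp from one core to the next. It began 26 bp and 21 bp downstream of the start at Runx1 and Runx2, and 136 bp before the distal start of Runx3 (position -136). Of 32851 RefSeq promoter windows, which hold 250 bases before a start and 50 after it, 4 contained the run. These were the 3 RUNX windows and that of Gm16225, a non-coding gene whose window lies over the Runx3 distal window on the opposite strand. At Runx1 an AML site (chr16:92825705-92826385) and a myeloid site (chr16:92825670-92826434) both covered the run. At Runx3 only a myeloid site did (chr4:135120146-135120940), the nearest AML midpoint being 21.3 kb downstream of the start. At Runx2 neither list had a site there, and the nearest midpoints lay 33.1 kb (AML) and 37.3 kb (myeloid) downstream. TGTGGT on either strand was present in 15.0% of the windows of protein-coding genes and occurred 2 or more times in 319 of these 21262 windows. It was present in 13.6% of windows with a myeloid site, 15.3% of those without one and 22.4% of windows with an AML site. Among the members, the windows of Cbfb, Tle1 and the more upstream Tle4 start, each with a myeloid site, held 0 copies. The Runx2 window, without a site, held 3. A match of letters does not show binding by a RUNX protein.

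The occupied and unoccupied promoters of Runx1 differed in their content of CG, the dinucleotide in which most cytosine methylation of mammals lies. The 250 bases before each start of Runx1 and before that of Cbfb are shown, with CG in capitals.
Runx1 distal, chr16:92826075-92826324, minus strand: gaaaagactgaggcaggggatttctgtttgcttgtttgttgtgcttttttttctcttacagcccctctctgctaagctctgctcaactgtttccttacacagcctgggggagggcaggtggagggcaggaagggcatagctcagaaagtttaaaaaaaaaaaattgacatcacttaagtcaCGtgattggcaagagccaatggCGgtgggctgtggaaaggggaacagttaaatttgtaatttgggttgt
Runx1 proximal, chr16:92697330-92697579, minus strand: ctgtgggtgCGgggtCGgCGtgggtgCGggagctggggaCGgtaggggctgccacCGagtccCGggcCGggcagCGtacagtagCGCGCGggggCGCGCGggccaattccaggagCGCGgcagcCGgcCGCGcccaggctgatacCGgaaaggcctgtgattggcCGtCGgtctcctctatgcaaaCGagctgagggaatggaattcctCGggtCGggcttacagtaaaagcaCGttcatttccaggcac
Cbfb, chr8:105170424-105170673, plus strand: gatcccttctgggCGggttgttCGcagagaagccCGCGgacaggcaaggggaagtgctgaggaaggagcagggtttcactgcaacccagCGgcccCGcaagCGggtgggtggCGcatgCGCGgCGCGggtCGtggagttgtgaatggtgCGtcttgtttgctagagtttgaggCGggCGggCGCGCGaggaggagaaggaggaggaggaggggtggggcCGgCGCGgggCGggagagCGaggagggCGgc
The distal Runx1 window, occupied in both lists, held 2 CG in its 300 bases. The proximal window held 35 and met no site, the nearest midpoints lying 18.3 kb (AML) and 18.0 kb (myeloid) upstream of that start. Cbfb, with a myeloid site and no AML site, held 30. Over all protein-coding genes the windows with a myeloid site had a median of 23 CG and those without one a median of 9, so the Runx1 pair had the reverse order. The 8 CG of the occupied Runx3 distal window also lay below the median of unoccupied windows, and its proximal window had 45. The other occupied windows, those of Cbfb, Tle1 (40 CG) and the more upstream Tle4 start (28 CG), lay above the median of occupied windows. The Runx2 window, which met no site in either list, held 2 CG, as many as the occupied Runx1 distal window. The windows of Tle3 and the more downstream Tle4 start, also without a site, held 21 and 44.

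Of the 10 promoter windows that the table holds for the members other than Runx1t1, 5 overlapped a myeloid site, where 19% of the windows of all protein-coding genes did. They were Runx1 distal, Runx3 distal, Cbfb, Tle1 and the more upstream of the Tle4 starts. Only the Runx1 distal window overlapped an AML site, against 1.74% of all windows. The remaining 5 windows, which include those of Runx2 and Tle3, met no site in either list. Near the proximal window of Runx3 a myeloid site began outside it, with its midpoint 0.419 kb downstream of the start.

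Runx1, Runx2, Runx3 and Tle3 carried most of the sites, and Cbfb and Runx1t1 had a myeloid site each and no AML site. An AML site was present at 6 of the 8 genes, where 18.9% of the 21883 protein-coding genes had one, and a myeloid site at all 8, where 40.4% did. The median was 3.5 AML and 5.5 myeloid sites per member, and 0 in both lists over all protein-coding genes. Long genes and wide gaps between genes collect more sites, so counts were also divided by the window searched, meaning the gene and the sequence assigned to it. The members' windows had 1.38 AML sites and 2.23 myeloid sites per 100 kb, against 0.333 and 0.931 over all protein-coding genes. These are descriptions of 2 lists, and no test was made over the members.

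**Figure D1:**
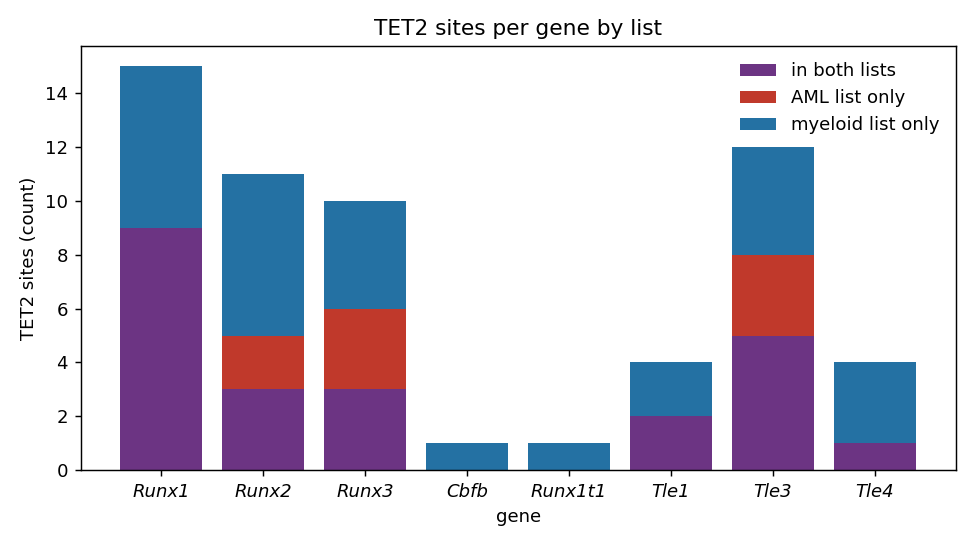
Stacked bars give the number of TET2 sites per gene (vertical axis, count), split into sites in both lists, in the AML list only and in the myeloid list only. Runx1 has 15 distinct positions and no AML-only part, Tle3 has 12, and Cbfb and Runx1t1 have 1 each.

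**Figure D2:**
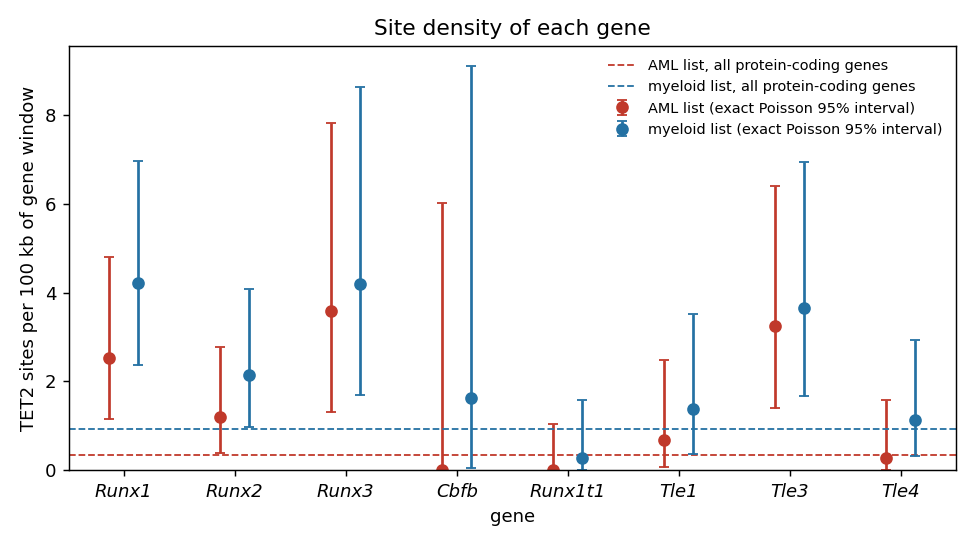
Points give TET2 sites per 100 kb of each gene's window in the AML and myeloid lists, with exact Poisson 95% intervals that cover counting error only; dashed lines mark 0.333 (AML) and 0.931 (myeloid) over all protein-coding genes. The intervals of Runx1, Runx2, Runx3 and Tle3 lie above the line of their list in both lists, and those of the other 4 genes reach or cross it. Those of Runx2 begin just above it, at 0.388 (AML) and 0.983 (myeloid). They rest on 5 and 9 sites, which become 4 and 8 without sites inside another gene, and 1 and 1 by the nearest gene end alone.

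Runx1, required for the formation of blood stem cells and the source of the Runt domain in AML1-ETO, had 9 AML sites and 15 myeloid sites. Exact Poisson 95% intervals, which cover counting error over sites only, were 4.12 to 17.1 and 8.40 to 24.7. All 9 AML sites overlapped a myeloid site, so the 6 unshared sites of the locus were all in the myeloid list. Only 7 of the 21883 genes, Runx1 included, had at least 9 AML sites, and 4 had at least 15 myeloid sites. These ranks are by count and do not allow for the window searched, which was 354.7 kb at Runx1. Per 100 kb of window Runx1 had 2.54 AML and 4.23 myeloid sites, Runx3 3.60 and 4.19, and Tle3 3.25 and 3.66. Of the 91 genes with 5 or more AML sites, 15 had all of them shared, and among these Runx1 had the most AML sites. The gene lies at chr16:92601466-92826074 and spans 224.6 kb.

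The shared sites of Runx1 stretched from upstream of the distal start to beyond the far end of the gene. Upstream, AML midpoints lay 54.8 and 41.4 kb before the distal start, in the 757.4 kb gap towards Setd4. One was on the distal start itself, 0.029 kb downstream of it. Between the distal and proximal starts, which are 128.7 kb apart, AML midpoints lay 24.3, 61.1 and 110.4 kb downstream of the distal start. An intronic enhancer active in blood stem cells is known in this interval, but enhancers were not annotated in the tables used and no site was matched to it. Beyond the proximal start, sites lay 172.0 and 205.0 kb downstream of the distal start inside the gene. The last, at 252.8 kb, lay past the gene, 28.2 kb from its end and on the side of Clic6.

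The 6 myeloid-only sites of Runx1 stood among the shared ones. Their midpoints lay 48.2 kb before the distal start and 3.77, 25.045, 39.0, 184.8 and 213.4 kb after it. The one at 25.045 kb (chr16:92800668-92801391) ended 15 bp short of the next myeloid site, which was shared with the AML list (chr16:92801406-92802186). It also ended just short of the AML site there (chr16:92801467-92802147), with midpoints 778 bp apart, so its status as unshared rests on the rule of at least 1 bp of overlap. At the shared positions the AML and myeloid midpoints differed by 3 to 308 bp. The 308 bp difference was at 110.4 kb, where the myeloid site was 1408 bp wide and merged from 2 deposited sites, and the AML site was 698 bp wide. The other merged myeloid site of the gene was 1276 bp wide and lay opposite the widest AML site of the locus, at 996 bp. Only 0.90% of myeloid sites were wider than the former and 1.89% wider than the latter.

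The share of Runx1's myeloid sites that were also in the AML list, 9 of 15, was compared with that of all other assigned sites. The odds ratio was 4.31 (Fisher's exact test, two-sided, p = 0.00529), but the result did not pass after Benjamini-Hochberg adjustment over the 706 genes with at least 5 myeloid sites (adjusted p = 0.377). In that comparison 0% of genes passed, and 50 of the 706 had an unadjusted p under 0.05. By their AML, myeloid and shared counts, the genes nearest to Runx1 were Wwox (9, 16 and 7), Creb5 (8, 14 and 7) and Sgms1 (10, 12 and 8). Likeness was the Euclidean distance over these 3 counts, at 2.24, 2.45 and 3.32. All 3 are longer than Runx1, at 913.1, 413.1 and 267.2 kb.

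Runx2, known above all for bone formation, had 5 AML sites and 9 myeloid sites, of which 3 were shared. The gene lies at chr17:44495987-44814797, spans 318.8 kb and overlaps Supt3, a gene read from the opposite strand. Shared midpoints lay 151.2 and 159.9 kb downstream of the RefSeq start, deep inside the gene, and 381.6 kb downstream, which is 62.9 kb beyond the end of the gene on the side of Clic5. The AML-only sites lay 33.1 and 198.7 kb downstream, the latter 1.72 kb from a myeloid-only site. The myeloid-only sites lay 37.3, 77.2, 104.6, 114.1, 161.3 and 200.5 kb downstream. The one at 37.3 kb (chr17:44776712-44777964, 1252 bp) lay 220 bp from an end of Supt3 and covered the Supt3 promoter window, so it can be read as a site of either gene. Both that site and the AML-only site at 33.1 kb lay inside Supt3 as well. Most Runx2 sites were over 100 kb from its ends or nearer to an end of Supt3: by the nearest gene end alone, Runx2 kept 1 AML site and 1 myeloid site.

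Runx3, which acts in T cells, natural killer cells and myeloid cells, had 6 AML sites and 7 myeloid sites, and 3 of each were shared. Its 57.3 kb (chr4:135120645-135177990) held the midpoint of 1 AML site and 2 myeloid sites. The shared midpoints lay 77.9 and 50.6 kb before the distal start and 21.3 kb after it, between the distal and proximal starts. AML-only midpoints lay 90.8 and 66.8 kb before the distal start and 72.3 kb after it, the last 15.0 kb beyond the gene on the side of Clic4. Each of these 3 was over 10 kb from the nearest myeloid midpoint. Myeloid-only midpoints lay 35.0 kb and 0.102 kb before the distal start, 0.419 kb after the proximal start, and 1.38 kb beyond the end of the gene. Both starts of Runx3 thus had a myeloid site within 0.5 kb and no AML site, while the AML-only sites were all distal. With a limit of 50 kb the AML count fell to 2, and with all annotated genes competing for a site the counts were 2 AML and 4 myeloid.

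Cbfb, the partner that strengthens DNA binding by RUNX proteins, had 0 AML sites and 1 myeloid site. Its AML count of 0 allows up to 3.69 sites by the exact Poisson interval. The myeloid site (chr8:105170092-105171170) spanned the start, with its midpoint 0.043 kb upstream, and at 1078 bp it was at least as wide as 95.8% of the list. The Cbfb window of 61.2 kb was the smallest of the 8 genes, with neighbours at 20.6 kb (Ces4a) and 7.16 kb (D230025D16Rik). The nearest AML site lay 196.9 kb upstream of the start.

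Runx1t1, whose product ETO is the other part of AML1-ETO, had 0 AML sites and 1 myeloid site in a window of 352.4 kb. The site (chr4:13822648-13823568, 920 bp) lay inside the gene (chr4:13742628-13895056), 71.9 kb from its nearer end. The gaps to its neighbours Triqk and Slc26a7 were 761.1 and 607.4 kb. At 0.284 myeloid sites per 100 kb it was the member with the lowest myeloid density, and its interval (0.0072 to 1.58) included the 0.931 of all genes. Exons were not annotated in the table used, so whether the site lies in an exon was not analysed here.

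Tle3, a corepressor of the Groucho family, stood nearest to the RUNX genes in its counts, with 8 AML sites and 9 myeloid sites in and around a gene of 46.2 kb (chr9:61372326-61418497). Only 14 genes, Tle3 included, had as many AML sites, and 114 had as many myeloid sites. The exact Poisson intervals were 3.45 to 15.8 and 4.12 to 17.1. Of the AML sites 5 were shared. Shared midpoints lay 22.5 and 1.74 kb before the RefSeq start, 13.6 kb after it inside the gene, and 5.97 and 8.80 kb beyond the end of the gene (AML positions). AML-only midpoints lay 34.8 kb before the start and 3.78 and 17.2 kb after it. The site at 17.2 kb was 991 bp wide and its midpoint was 2.21 kb from that of a myeloid-only site at 19.4 kb. The other myeloid-only midpoints lay 93.8, 24.2 and 8.99 kb before the start. The start itself had no site in either list, and the nearest pair, at about 1.7 kb, was shared (chr9:61370279-61370970 in the AML list). With all annotated genes competing, Tle3 kept 5 AML and 4 myeloid sites.

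Tle1 and Tle4, 2 further corepressors of this family that can be lost in human leukemias with the AML1-ETO fusion, had fewer sites. Tle1 (chr4:72109945-72200989) had 2 AML sites, both shared, at 5.63 kb after its start and 30.2 kb before it. Its 2 myeloid-only sites lay on the start (0.034 kb upstream) and 31.5 kb before it, 1.36 kb from the nearest shared site. Tle4 (chr19:14448072-14598183) had 1 AML site, shared, 22.4 kb before its more upstream start. Its 3 myeloid-only sites lay 0.42, 61.8 and 70.8 kb before that start, so no Tle4 site had its midpoint inside the gene. With all annotated genes competing, or with a limit of 20 kb, Tle1 kept 2 myeloid sites and 1 AML site, the latter overlapping a myeloid one. Tle4 kept 2 myeloid sites with a limit of 50 kb, and 0 AML sites and 1 myeloid site with a limit of 20 kb. The densities of Tle1 and Tle4 were 0.687 and 0.286 AML sites and 1.37 and 1.14 myeloid sites per 100 kb, and all 4 intervals included the value of all genes.

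**Figure D3:**
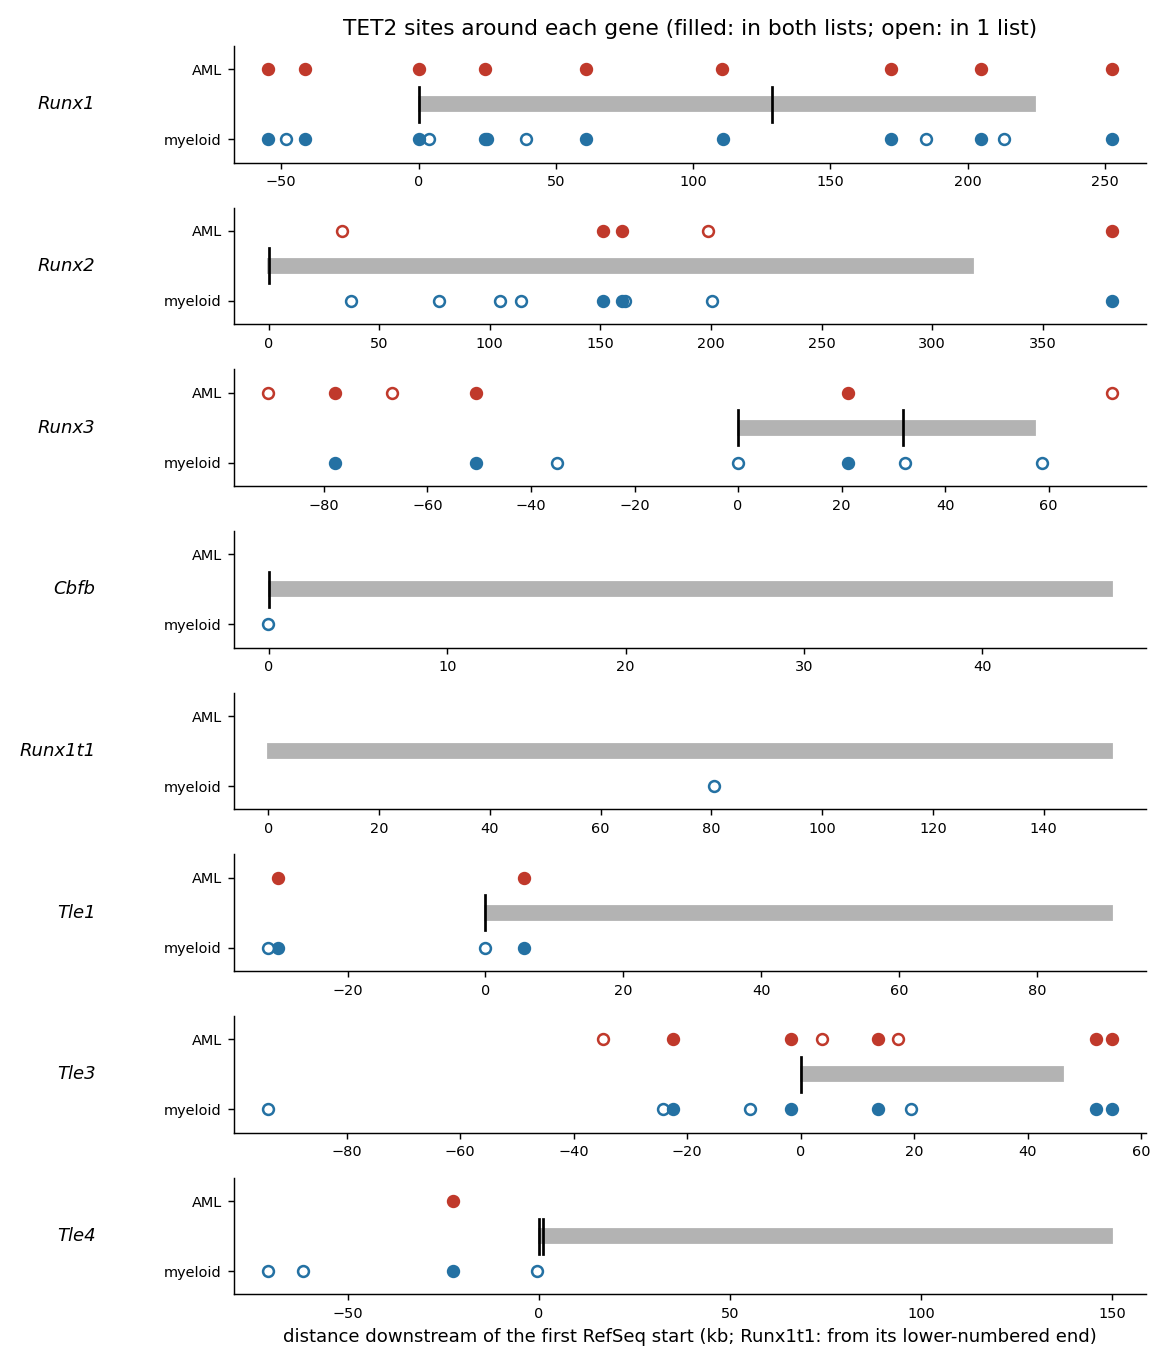
Circles mark midpoints of AML (upper row) and myeloid (lower row) TET2 sites by distance downstream of each gene's first RefSeq start (kb; for Runx1t1, without an entry in the promoter table, from its lower-numbered end); filled circles are sites in both lists, open circles sites in 1 list, grey bars the gene and black bars RefSeq starts. At Runx1 all 9 AML circles are filled, and at Runx3, Tle1, Tle4 and Cbfb the starts carry open myeloid circles.

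Of the 23 positions that the lists had in common at the members, 22 lay over 1 kb from the ends of the gene. Over all genes 4146 of 4639 shared AML sites did. Of the 31 AML sites 23 were shared (74.2%, exact Clopper-Pearson 95% interval 55.4 to 88.1), as were 72.3% of the AML sites assigned to any gene. Of the 50 myeloid sites those 23 were 46.0% (31.8 to 60.7), against 25.8% over all genes. Runx1 weighed on this share, which was 40.0% (23.9 to 57.9) over the other 7 genes. Sites within 1 kb of an end of their gene were 3.23% of the members' AML sites and 10% of their myeloid sites. The shares over all genes were 9.32% and 23.7%. At the members these were 1 AML site, at Runx1, and 5 myeloid sites, at Runx1, Runx3, Cbfb, Tle1 and Tle4. Of these 5 only the one at Runx1 was shared, and over all genes 11.6% of myeloid gene-end sites were. For the members only the outer ends of the gene itself counted. The myeloid-only sites 0.419 kb after the proximal Runx3 start and 220 bp from an end of Supt3 were therefore not in this class. Of the members' myeloid sites over 1 kb from an end, 22 of 45 were shared (48.9%, 33.7 to 64.2), against 30.2% over all genes. Neighbouring sites are not independent, and these intervals treat them as if they were.

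Shared sites sat at nearly the same place in both lists. The midpoints of the 23 shared pairs differed by a median of 24 bp, and by at most 50 bp in 18 pairs. The median over all 4922 shared AML sites was 25 bp. The myeloid site was the wider of the pair in 17 of 23 cases, and in 60.8% of all shared pairs. Median widths of the members' shared sites were 703 bp (AML) and 767 bp (myeloid), and of unshared ones 681.5 and 719 bp. In the whole lists shared sites were likewise wider than unshared ones, at 727 against 705 bp (AML) and 758 against 695 bp (myeloid).

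Of the 8 AML-only sites, all at Runx2, Runx3 and Tle3, 3 had a myeloid midpoint within 5 kb, and the distances ran from 1.72 to 12.9 kb. Runx3 and Tle3 each had 3 AML-only and 4 myeloid-only sites, where AML-only sites were 11.8% of unshared sites over all genes. The odds ratio was 5.63 for each (Fisher's exact test, two-sided, p = 0.0396), and neither passed after Benjamini-Hochberg adjustment over the 431 genes with at least 5 unshared sites (adjusted p = 0.682). Runx1, with 0 AML-only and 6 myeloid-only sites, and Runx2, with 2 and 6, did not pass either (Fisher's exact test, adjusted p = 1 for both). In this comparison 3 genes passed (0.696%), none of them a member, and 25 had an unadjusted p under 0.05. With 6 to 8 unshared sites per gene, only large differences could be detected. Cbfb, Runx1t1, Tle1 and Tle4 had too few sites to enter either comparison.

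**Figure D4:**
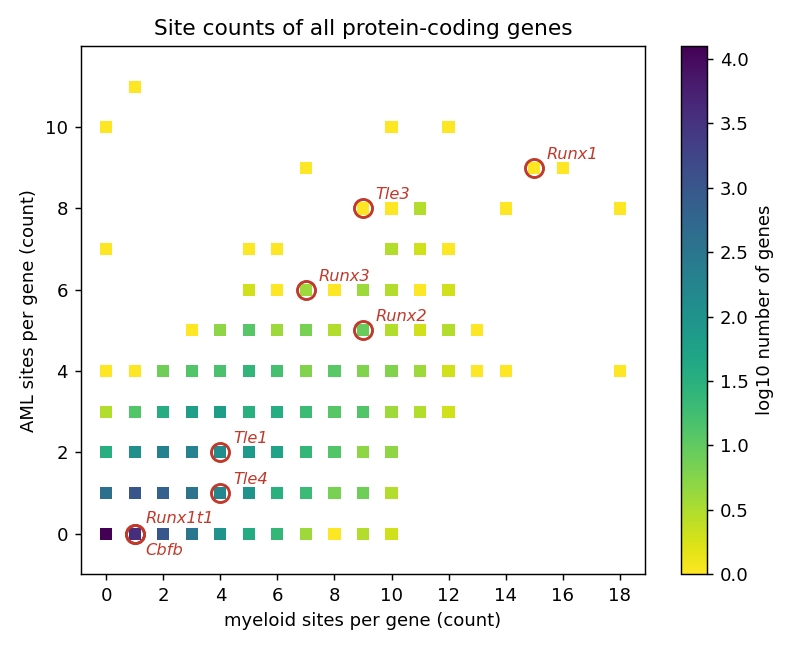
Squares show how many protein-coding genes have each pair of site counts (horizontal axis, myeloid sites per gene; vertical axis, AML sites per gene; colour, log10 number of genes), and circles mark the members. Runx1 and Tle3 lie at the sparse upper right edge, Runx3 and Runx2 inside it, and Cbfb and Runx1t1 together at 1 myeloid and 0 AML sites.

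Other genes of RUNX complexes were counted by the same rule. Of 18 corepressor and cofactor genes examined, AML sites were found at 3 (18.9% of all genes had one) and myeloid sites at 14 (40.4% of all genes). Cbfa2t3, a relative of ETO, had 2 AML and 5 myeloid sites. The kinase genes Cdk6, whose product binds RUNX1, and Hipk2 had 4 and 7, and 2 and 5. All 8 AML sites of these genes but 1, at Cdk6, were shared (72.3% over all genes). The remaining TLE family genes, Tle2, Tle5 and Tle6, had 2 myeloid sites each and 0 AML sites. Hdac2, Hdac3, Prmt1 and Yap1 had no site in either list.

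Of 25 blood genes described as targets or partners of RUNX1, AML sites lay at 12 and myeloid sites at 18, against 18.9% and 40.4% of all genes. Erg, an ETS factor of stem cells, had 2 AML and 9 myeloid sites, and its relative Fli1 had 3 and 6. Gata2 had 2 and 7, Lmo2, an adaptor of stem cell factor complexes, 2 and 5, and Spi1, which encodes the myeloid factor PU.1, 2 and 5. Gfi1 and Gfi1b, which encode repressors of blood cells, had 2 and 4, and 1 and 4. Myb had 0 AML and 4 myeloid sites. Of the 21 AML sites of this list 20 were shared, where 72.3% of the AML sites assigned to any gene were, and 7 genes had no site in either list. Of the 43 genes in these groups, 3 had enough unshared sites and 8 enough myeloid sites to enter the per-gene comparisons, and none of those passed (Fisher's exact test, adjusted p of at least 0.956).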

How the data were processed

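TET2 chromatin immunoprecipitation libraries of 2 cell kinds were read as the authors' deposited lists of site positions, 1 per kind; per the file headers each row holds chromosome, start and end, without a score. The submitters' processing notes name Trimmomatic, Bowtie2, MACS2 and mm10. Versions, thresholds, pooling of replicates and the role of knockout, IgG and input libraries in the lists were not stated. The 7002 AML and 19706 myeloid sites as deposited were merged within a list where they overlapped by at least 1 bp; 1 AML site on another contig was left out. Whether starts count from 0 or 1 is not stated. Genes and promoter sequences came from RefSeq (GRCm38.p6). A site inside several genes counted for each. Sites of the 2 lists were shared when they overlapped by at least 1 bp.

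Site counts have exact Poisson and shares Clopper-Pearson 95% intervals. Per-gene comparisons used Fisher's exact test (scipy 1.17.1, Python 3.11.15) over all protein-coding genes with at least 5 sites. Benjamini-Hochberg adjustment was applied with a threshold of 0.05. The comparison of unshared sites, but not that of sharing, was also run on simulated counts that treated sites as independent. That run cannot show how either comparison behaves when neighbouring sites depend on each other. With 1 list per cell kind the per-gene comparisons compare the lists, not replicated conditions. The members and gene lists were chosen with earlier results of these data known. All members are named, as are genes of the 2 gene lists with at least 4 sites in either list, those with no site where 5 or fewer, and the 3 genes nearest to Runx1 in their counts; Tle2, Tle5 and Tle6 were named after their values were seen. The gene list entry Aes is the older symbol of Tle5. Of the corepressor and cofactor genes, 1 is not reported here.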

Additional observations from a re-analysis of the deposited data

How the results depend on the processing

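The members had 31 AML sites, 50 myeloid sites and 23 shared sites. With a limit of 20 kb in place of 100 kb these were 19 AML and 14 shared sites, and with sites inside the genes alone 15 AML, 26 myeloid and 11 shared sites; both alternatives search less sequence. Sites at gene ends rose from 1 to 2 in the AML list with a limit of 2 kb, through the shared site before Tle3. All other alternatives for these totals stayed within 1.5 times. These were no merging, a limit of 50 kb, the nearest gene end alone, all annotated genes, and 3 other definitions of sharing. Leaving out sites that also lie inside another gene, an alternative added after the data were seen, also stayed within 1.5 times. For the counts of single genes, 37 values under the alternatives moved by over 1.5 times and 155 did not. The latter include the AML and shared counts of 0 at Cbfb and Runx1t1, which could not fall. They also include all counts of Runx1, although its AML and shared counts fell from 9 to 6. That was with a limit of 20 kb and, likewise, with sites inside the gene alone. No member passed either per-gene comparison with at least 3 sites per gene or with an overlap of 50% of the shorter site (Fisher's exact test, smallest adjusted p = 0.366). No paired analysis was possible because the lists hold no value per library, and for the same reason no replicate could be left out. The unknown depth limits every count of 0.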
